A study of Caenorhabditis elegans with 15 samples.

Results

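Lysozymes are enzymes that cut peptidoglycan, the polymer of the bacterial cell wall. *C. elegans* lives on bacteria, and its lysozymes serve both digestion and innate immunity, chiefly in the intestine and the pharynx. The genes fall into a protist-type family, named *lys*, and an invertebrate-type family, named *ilys*. Insulin/IGF signaling (IIS) restrains the transcription factor DAF-16, and *lys-7* is a classical target that DAF-16 raises when IIS is low. The p38 kinase PMK-1 and the DBL-1 ligand of the TGF-beta family also control antimicrobial genes in the worm.

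A set of 10 lysozyme genes (of the 20483 genes measured) was followed by matching WormBase gene identifiers to public names, namely *lys-1*, *lys-2*, *lys-4*, *lys-5*, *lys-7*, *lys-8*, *lys-10*, *ilys-2*, *ilys-3* and *ilys-5*. All 10 were found. Messenger RNA had been sequenced from whole animals of 3 strains, with 5 biological replicates each. The *age-1; gas-1* animals, called double mutants below, carried *gas-1(fc21)* together with *age-1(hx546)*, an allele of the phosphoinositide kinase that transmits the IIS signal. The *gas-1* mutants carried fc21 alone, a loss-of-function allele of a subunit of respiratory complex I. The third strain was wild-type (wt). All animals were raised at 20 °C on *E. coli* OP50, and the sample labels name the larval stage L4, whereas the study's methods describe RNA from young adults. No library of *age-1* single mutants was analysed here, so an effect of *age-1(hx546)* by itself and one that needs the *gas-1* background cannot be told apart. Each genotype was represented by a single strain, and any other difference between the strains cannot be told apart from that of the named alleles.

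Values are FPKM, which scale fragments to the length of a transcript and to the reads mapped, so levels of different genes can be compared per length. Of the 10 lysozyme genes, 6 reached 1 FPKM in all 15 libraries and 4 stayed below 1 FPKM in every library. The abundant transcripts were those of *lys-1*, *lys-2*, *lys-4*, *lys-7*, *lys-8* and *ilys-5*. They were tested among the 11648 genes that reached 1 FPKM in 5 or more libraries, using limma on log2(FPKM + 0.1), and p-values were adjusted over all of these genes to a 5% false discovery rate (FDR). The 3 comparisons share libraries and are therefore not independent of each other.

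Facts on the libraries bear on the values below. Library sums were similar, between 658126 and 702623 FPKM, and read totals cannot be recovered from FPKM. Transcripts of *gas-1* averaged 220.6 FPKM in *age-1; gas-1*, 219.5 FPKM in *gas-1* and 115.0 FPKM in wt animals, and since both alleles are point mutations these levels do not check the labels. Oocyte marker genes were abundant in every library (median log2(FPKM + 0.1) of 9.13 to 9.75 over 6 genes), although L4 is a stage before oocytes mature. Over 11 sperm marker genes, 4 libraries stood apart from the rest of their strain. Their medians were -0.64 and -0.35 for replicates 2 and 5 of *age-1; gas-1* (1.58 to 1.82 in the other 3), -0.87 in *gas-1* replicate 2 (0.68 to 1.12 in the other 4) and -1.67 in wt replicate 3 (0.64 to 1.501 in the other 4). These 4 libraries are called poor in sperm RNA here, and results are given without them where the values differ. Because RNA came from whole bodies, fewer cells of a type and less RNA per cell cannot be told apart.

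The lysozyme genes are spread over 4 chromosomes, and 6 of the 10 lie in 3 clusters with other lysozyme genes (coordinates of WBcel235, matched by identifier). On chromosome V, *lys-1* (10277904 to 10279056, plus strand, 2 exons) and *lys-2* (10280307 to 10281474, minus strand, 2 exons) are 1250 bp apart, and *lys-3* follows 625 bp further on. On chromosome IV, *lys-4* (11621429 to 11623174, minus strand, 2 exons) and *lys-5* (11624252 to 11625582, minus strand, 2 exons) are 1077 bp apart, and *lys-6* follows after 1327 bp. Another cluster on chromosome IV holds *ilys-3* (2464456 to 2465443, plus strand, 4 exons) and *ilys-2* (2467678 to 2468879, plus strand, 4 exons) at a distance of 2234 bp, with *ilys-1* 1534 bp beyond. No protein-coding gene is annotated between the neighbours of any of these clusters. The single genes are *lys-7* (chromosome V, 3481432 to 3482600, minus strand, 3 exons), *lys-8* (chromosome II, 5586178 to 5587651, plus strand, 3 exons), *lys-10* (chromosome IV, 8332826 to 8333518, plus strand, 1 exon) and *ilys-5* (chromosome X, 6533490 to 6536840, minus strand, 4 to 5 exons in 3 transcripts). The annotation places a protein-coding gene on the opposite strand over 38 bp of *lys-8*, and because the use of strand in counting is not given, reads from this overlap cannot be assigned. Near-identical stretches between neighbours were not examined, so a low member beside an abundant one is uncertain.

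The make-up of the lysozyme message differed between the strains, mainly through *ilys-5* and *lys-2*. The 10 genes together amounted to 1486 ± 127.5 FPKM in *age-1; gas-1*, 1148 ± 181.6 FPKM in *gas-1* and 1229 ± 101.5 FPKM in wt animals (SD, n = 5 each). In *age-1; gas-1* mutants the shares of this sum were nearly level, with 43.8% ± 2.80 for *ilys-5* and 41.1% ± 2.73 for *lys-2*. In *gas-1* mutants *ilys-5* held 29.5% ± 5.70 and *lys-2* 56.4% ± 5.85. In wt, *ilys-5* alone held 86.3% ± 1.16 and *lys-2* held 5.06% ± 1.45. The ratio of *ilys-5* to *lys-2* was thus 1.07 ± 0.139 in *age-1; gas-1*, 0.538 ± 0.172 in *gas-1* and 18.2 ± 5.14 in wt animals, and no mutant library exceeded 1.25, against a lowest wt ratio of 11.6. Among all genes ranked by FPKM, *lys-2* stood between places 94 and 162 in *age-1; gas-1* and between 81 and 215 in *gas-1* libraries, against 1680 to 2798 in wt libraries. For *ilys-5* the places were 94 to 133 in *age-1; gas-1*, 287 to 352 in *gas-1* and 52 to 73 in wt libraries.

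**Figure D1:**
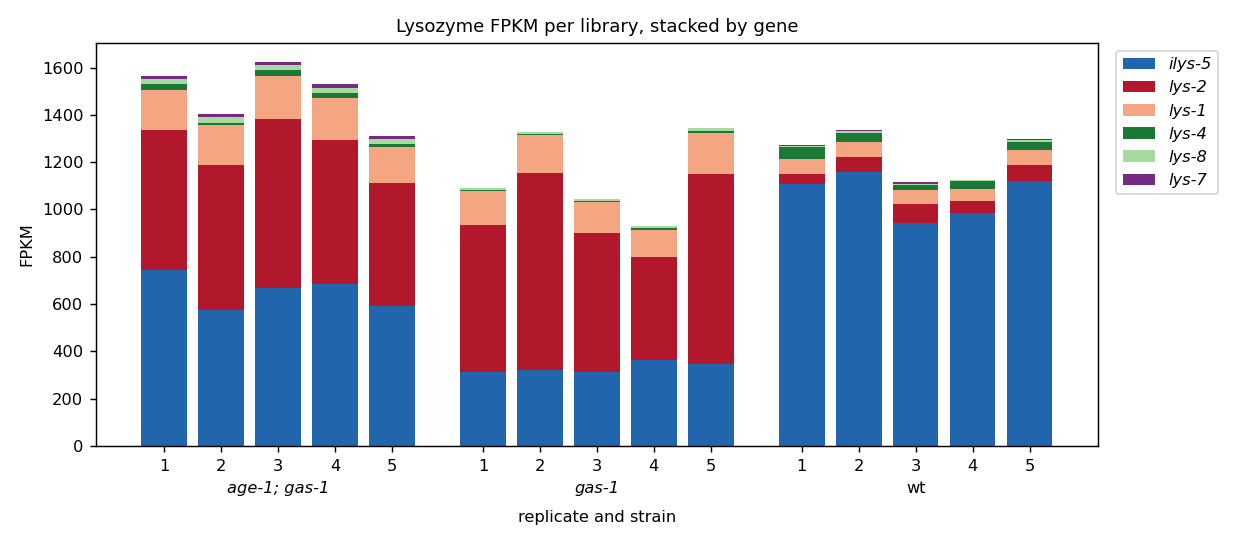
Stacked FPKM of the 6 abundant lysozyme transcripts (vertical axis) in each of the 15 libraries (1 bar per replicate, horizontal axis, grouped by strain); the 4 genes below 1 FPKM are too low to be drawn. *lys-2* takes up 521.1 to 714.5 FPKM in *age-1; gas-1* and 437.3 to 830.3 FPKM in *gas-1* bars, against 43.3 to 81.4 FPKM in wt bars, where *ilys-5* fills most of the bar.

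In double mutants compared to *gas-1*, 4 of the 6 tested lysozyme genes rose and none fell, while *lys-1* and *lys-2* did not pass the test. Changes between the mutants are given as double mutants over *gas-1* throughout. Of all tested genes, 33.0% were called in this comparison, 13.5% as higher and 19.5% as lower. The median change of the 6 was 1.14 on the log2 scale, against -0.02 over all genes. In *gas-1* compared to wt animals, 3 rose and 3 fell, where 68.6% of all genes were called, 44.0% as higher and 24.6% as lower, and the median change was -0.15 against 0.14 over all genes. In double mutants compared to wt, 4 rose and 2 fell, against 75.7% of all genes called, 44.5% as higher and 31.2% as lower, with a median change of 1.59 (0.14 over all genes). Libraries without overlap were common too. Between the double mutants and *gas-1* all libraries lay above for 4 of the 6 members and below for none, against 10.6% and 15.7% of all genes (26.3% together). Between *gas-1* and wt they lay above for 3 and below for 2, against 31.7% and 18.8% (50.5% together). Between the double mutants and wt they lay above for 4 and below for 1, against 35.2% and 27.0% (62.2% together). Calls were so common in both comparisons with wt that a count of called members says little there. The members were also chosen with earlier results of these data known, so the counts in all 3 comparisons are descriptions. The same counts of calls were obtained without the 4 libraries poor in sperm RNA.

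**Figure D2:**
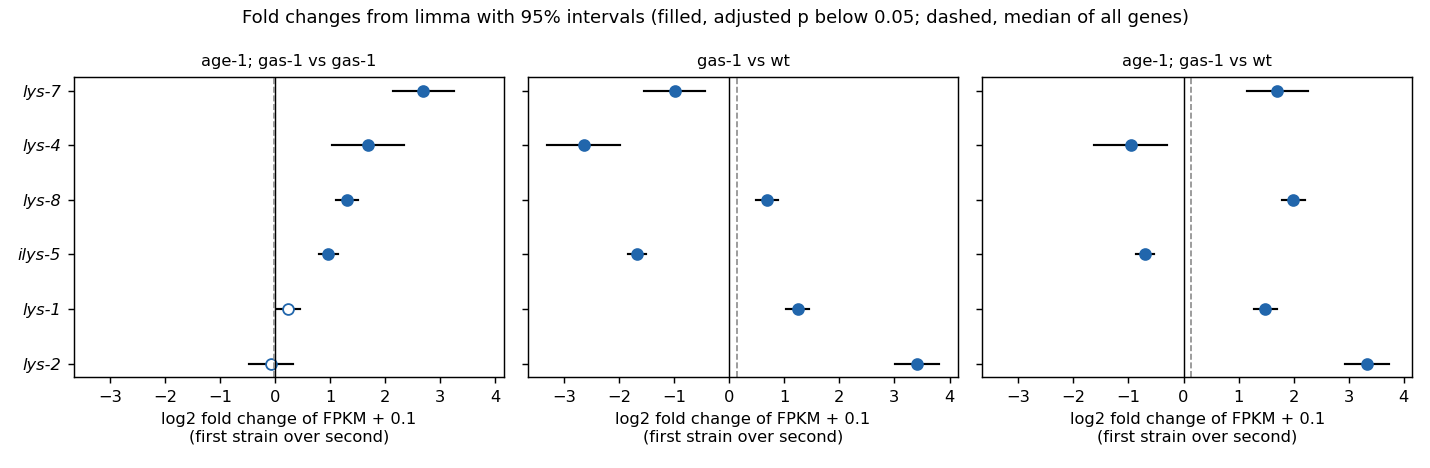
Log2 fold changes from limma with 95% intervals (horizontal axis, first strain over second) for the 6 tested lysozyme genes (rows) in the 3 comparisons (panels); filled points had an adjusted p below 0.05 and the dashed line is the median of all genes. *lys-7*, *lys-4*, *lys-8* and *ilys-5* lie at 2.69, 1.69, 1.31 and 0.97 in double mutants compared to *gas-1*, and *lys-1* and *lys-2* are the open points.

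*lys-7* and *lys-8*, both protist-type lysozymes, were highest in the double mutants. *lys-7*, which contributes to resistance against several bacterial pathogens, had 12.2, 11.8, 12.4, 13.8 and 10.1 FPKM in *age-1; gas-1* libraries, 1.71, 1.62, 1.48, 1.76 and 2.43 FPKM in *gas-1* libraries, and 2.99, 3.56, 6.80, 1.799 and 4.75 FPKM in wt libraries. Every double-mutant library lay above every other library, whereas *gas-1* and wt libraries overlapped, with wt replicate 4 inside the range of *gas-1*. The mean was 6.70 times that of *gas-1* mutants, a rise by 2.69 on the log2 scale (SE 0.26, limma adjusted p = 3.8e-06). Compared to wt the double mutants were higher by 1.70 (SE 0.26, limma adjusted p = 3.2e-05), and *gas-1* mutants were lower by 0.99 on the same scale (SE 0.26, limma adjusted p = 0.0036). The last call rests on the mean over overlapping libraries. The coefficient of variation (CV) was 11.1% in *age-1; gas-1*, 20.4% in *gas-1* and 47.8% in wt libraries, and the highest wt value was that of replicate 3, which is poor in sperm RNA. Without the 4 such libraries the change in *gas-1* compared to wt was -0.74 (limma adjusted p = 0.016).

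*lys-8*, another lysozyme expressed in the intestine, separated all 3 strains. It had 20.3, 23.9, 21.8, 22.1 and 23.01 FPKM in *age-1; gas-1* libraries, 9.06, 8.93, 8.71, 7.91 and 10.1 FPKM in *gas-1* libraries, and 5.55, 5.64, 5.87, 4.21 and 6.44 FPKM in wt libraries. No library of any strain overlapped with another strain, in the order *age-1; gas-1*, *gas-1*, wt. It rose by 1.31 on the log2 scale in double mutants compared to *gas-1* (SE 0.096, limma adjusted p = 2.8e-07), by 0.69 in *gas-1* compared to wt (SE 0.096, limma adjusted p = 2.2e-05) and by 2.00 in double mutants compared to wt (SE 0.096, limma adjusted p = 5.3e-10). The rise in *gas-1* compared to wt moved with scaling. Relative to the median of all genes it was 0.55, and after quantile normalization it was 0.35 (limma adjusted p = 0.0027).

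**Figure D3:**
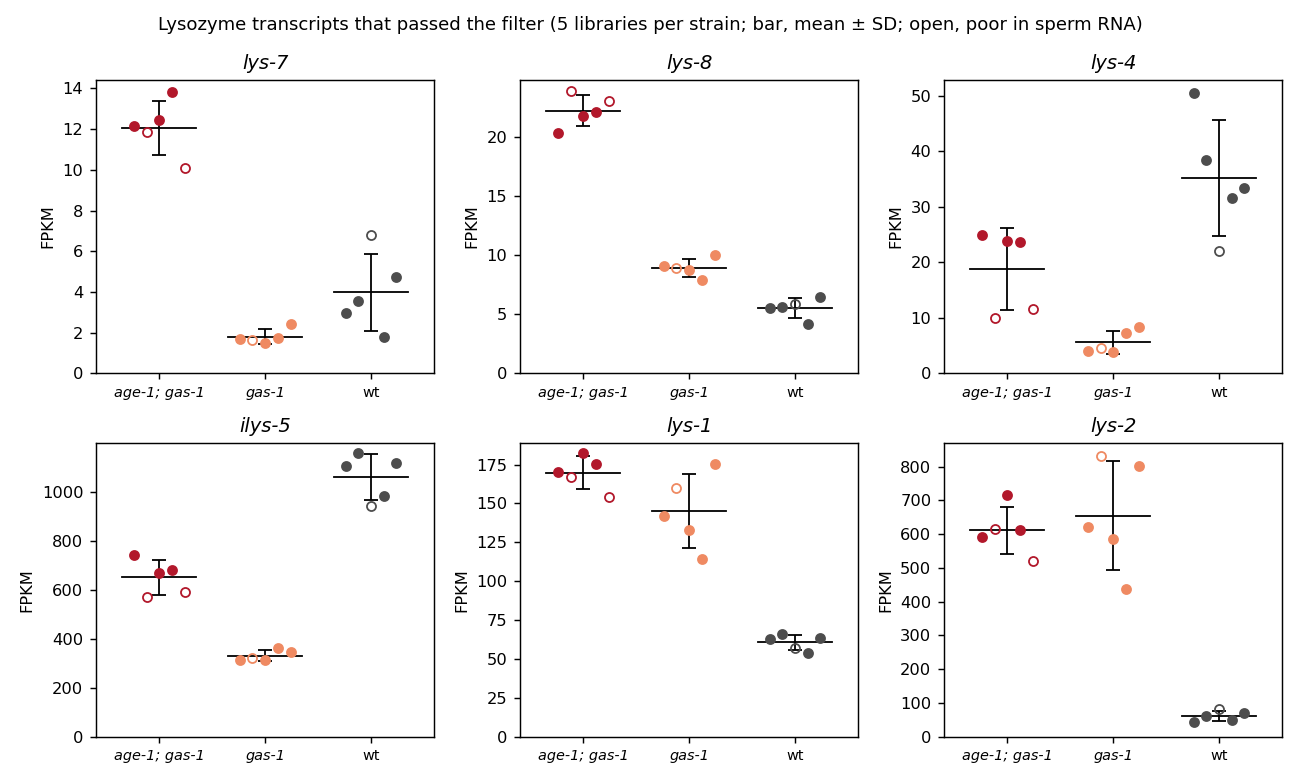
FPKM (vertical axis, starting at 0, a separate scale for each gene) of the 6 abundant lysozyme transcripts in the 5 libraries of each strain (points), with mean ± SD (bars); open points are the 4 libraries poor in sperm RNA. *lys-7* and *lys-8* are highest in *age-1; gas-1* animals, at 10.1 to 13.8 and 20.3 to 23.9 FPKM, *lys-4* and *ilys-5* are lowest in *gas-1* animals, and *lys-1* and *lys-2* separate both mutants from wt.

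*lys-4* and *ilys-5* shared another order, with the highest mean in wt, the lowest in *gas-1* mutants and an intermediate one in the double mutants. *ilys-5*, an invertebrate-type lysozyme on chromosome X, was the most abundant lysozyme transcript of wt. It had 742.9, 572.8, 668.7, 682.9 and 589.7 FPKM in *age-1; gas-1* libraries, 313.9, 321.9, 314.4, 361.5 and 346.3 FPKM in *gas-1* libraries, and 1106.5, 1157.5, 942.2, 983.3 and 1118.5 FPKM in wt libraries. The 3 strains were separated without overlap. *ilys-5* rose by 0.97 on the log2 scale in double mutants compared to *gas-1* (SE 0.077, limma adjusted p = 6.8e-07). Compared to wt it fell by 1.68 in *gas-1* (SE 0.077, limma adjusted p = 3.9e-10) and by 0.71 in *age-1; gas-1* mutants (SE 0.077, limma adjusted p = 1.3e-06).

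*lys-4* belongs to the protist-type family. It had 25.0, 9.96, 23.8, 23.6 and 11.6 FPKM in *age-1; gas-1* libraries, 4.08, 4.60, 3.87, 7.26 and 8.34 FPKM in *gas-1* libraries, and 50.6, 38.4, 22.1, 31.6 and 33.4 FPKM in wt libraries. All *gas-1* libraries lay below all others, while double-mutant and wt libraries overlapped through wt replicate 3. The transcript rose by 1.69 on the log2 scale in double mutants compared to *gas-1* (SE 0.31, limma adjusted p = 0.00085). Compared to wt it fell by 2.64 in *gas-1* (SE 0.31, limma adjusted p = 4.5e-06) and by 0.96 in *age-1; gas-1* mutants (SE 0.31, limma adjusted p = 0.011).

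The lowest *lys-4* values of the double mutants and of wt were those of libraries poor in sperm RNA. In *age-1; gas-1* animals replicates 2 and 5 had 9.96 and 11.6 FPKM, against 23.6 to 25.0 FPKM in the other 3, and wt replicate 3 had 22.1 FPKM, against 31.6 to 50.6 FPKM in the other 4. In *gas-1* animals no such gap was seen, as replicate 2 with 4.60 FPKM lay within the 3.87 to 8.34 FPKM of the other 4. Without the 4 libraries the double mutants averaged 24.1 ± 0.75 FPKM (SD, n = 3), *gas-1* mutants 5.89 ± 2.25 and wt animals 38.5 ± 8.54 (SD, n = 4 each). The CV of the double mutants was then 3.13%, against 39.2% with all 5 libraries. The rise in double mutants compared to *gas-1* was 2.096 in this set (limma adjusted p = 0.0002), and the change compared to wt was -0.65 (limma adjusted p = 0.036). *ilys-5* was also lower in the sperm-poor libraries of 2 strains, with 572.8 and 589.7 FPKM against 668.7 to 742.9 FPKM in *age-1; gas-1*, and 942.2 FPKM against 983.3 to 1157.5 FPKM in wt, but not in *gas-1* animals. *lys-7* was lower in these libraries in *age-1; gas-1* (11.8 and 10.1 against 12.2 to 13.8 FPKM) and higher in wt (6.80 against 1.799 to 4.75 FPKM). *lys-2* was higher in the sperm-poor libraries of *gas-1* (830.3 against 437.3 to 802 FPKM) and wt (81.4 against 43.3 to 70.7 FPKM). In *age-1; gas-1* animals these libraries lay above the others for *lys-8* (23.9 and 23.01 against 20.3 to 22.1 FPKM) and below them for *lys-1* (167.1 and 154.1 against 170.2 to 182.4 FPKM). Among the low genes they lay below the others for *lys-5*, *lys-10* and *ilys-2* in *gas-1* and for *ilys-3* in *age-1; gas-1* and wt, and above for *lys-10* in wt. No lysozyme gene lay outside the other libraries in the same direction in all 3 strains. These libraries also had the lowest summed level of 8 intestinal markers in their strain. It was 829.5 and 808.6 FPKM in *age-1; gas-1* (926.8 to 976 FPKM in the other 3). It was 800.3 FPKM in *gas-1* replicate 2 (others 923.2 to 1073) and 476.3 FPKM in wt replicate 3 (others 612.8 to 811.1). Body wall muscle markers summed lowest and oocyte markers highest in the same libraries. The part of sperm RNA content or of these other tissues in the lysozyme differences was not tested.

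**Figure D4:**
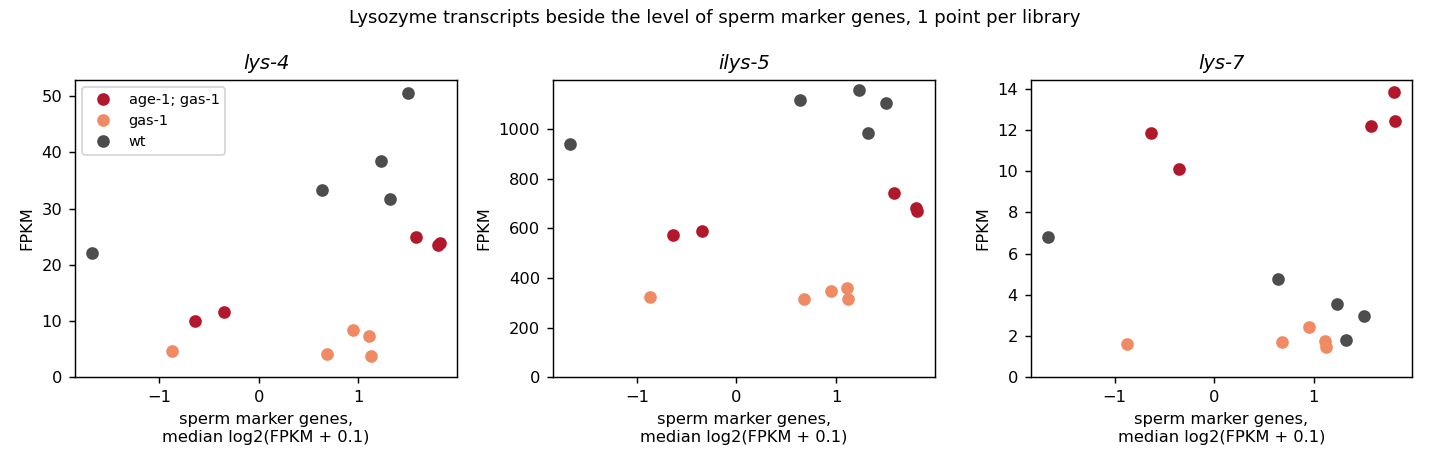
FPKM of *lys-4*, *ilys-5* and *lys-7* (vertical axes) against the median log2(FPKM + 0.1) of 11 sperm marker genes (horizontal axis), 1 point per library, coloured by strain. The 4 libraries with a median below 0 are those poor in sperm RNA, and the 2 of *age-1; gas-1* animals have 9.96 and 11.6 FPKM of *lys-4*, against 23.6 to 25.0 FPKM in the other 3.

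*lys-1* and *lys-2*, neighbours on chromosome V, were higher in both mutants than in wt. *lys-1*, an intestinal lysozyme, had 170.2, 167.1, 182.4, 175.3 and 154.1 FPKM in *age-1; gas-1* libraries, 142.0, 160.2, 133.2, 114.3 and 175.5 FPKM in *gas-1* libraries, and 62.9, 66.0, 57.4, 53.7 and 63.5 FPKM in wt libraries. *lys-2* had 592.5, 616, 714.5, 611.3 and 521.1 FPKM in *age-1; gas-1* libraries, 621.7, 830.3, 584.4, 437.3 and 802 FPKM in *gas-1* libraries, and 43.3, 62.8, 81.4, 50.3 and 70.7 FPKM in wt libraries. For both genes all mutant libraries exceeded all wt libraries, and the libraries of the 2 mutants overlapped. *lys-2* rose by 3.41 (log2) in *gas-1* (SE 0.19, limma adjusted p = 2.3e-09) and by 3.34 in *age-1; gas-1* mutants (SE 0.19, limma adjusted p = 2e-09) compared to wt, which was 10.6 and 9.91 times the wt mean. *lys-1* rose by 1.24 in *gas-1* (SE 0.097, limma adjusted p = 9.2e-08) and by 1.49 in *age-1; gas-1* mutants (SE 0.097, limma adjusted p = 8.8e-09).

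Between the mutants neither gene passed the test. For *lys-2* the change in double mutants compared to *gas-1* was -0.07 (95% interval -0.47 to 0.33, limma adjusted p = 0.82), so a difference of up to these bounds remains possible. For *lys-1* it was 0.24 (95% interval 0.03 to 0.45, limma adjusted p = 0.07). This value lay close to the threshold and passed it after upper-quartile rescaling (limma adjusted p = 0.049), quantile normalization (limma adjusted p = 0.046), with array weights (limma adjusted p = 0.0029) and without *gas-1* replicate 5 (limma adjusted p = 0.013), the highest *gas-1* library. In 24 of the 28 alternatives it did not pass, with a highest value without *gas-1* replicate 4 (limma adjusted p = 0.17). The neighbours also differed in their proportion, with *lys-2* at 3.59 ± 0.214 times *lys-1* in *age-1; gas-1*, 4.47 ± 0.486 times in *gas-1* and 1.02 ± 0.269 times in wt animals. *lys-2* was the more variable gene of the pair, with a CV of 24.8% in *gas-1* and 24.9% in wt against 16.4% and 8.27% for *lys-1*.

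The 4 remaining lysozyme genes were listed above 0 in all libraries but at no more than 0.541 FPKM, and read numbers behind such values are unknown. They were tested in a limma fit of all 20483 genes without a filter, which called 22.2% of them in the double mutants compared to *gas-1*, 51.6% (36.7% higher, 14.8% lower) in *gas-1* compared to wt, and 57.6% (39.0% higher, 18.7% lower) in the double mutants compared to wt. Fold changes on the log2(FPKM + 0.1) scale understate changes at these levels.

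*lys-5*, a protist-type lysozyme, had 0.0945, 0.0817, 0.0798, 0.119 and 0.0886 FPKM in *age-1; gas-1* libraries, 0.0553, 0.0280, 0.0352, 0.0529 and 0.0907 FPKM in *gas-1* libraries, and 0.541, 0.455, 0.360, 0.355 and 0.523 FPKM in wt libraries. Every wt library lay above every mutant library, and the 2 mutants overlapped. It fell by 1.84 on this scale in *gas-1* (limma adjusted p = 8.7e-08) and by 1.49 in *age-1; gas-1* mutants (limma adjusted p = 2.9e-07) compared to wt. The change between the mutants was 0.35 (limma adjusted p = 0.057), and it passed the test without *gas-1* replicate 5 (0.43, limma adjusted p = 0.014), wt replicate 3 (limma adjusted p = 0.046) or wt replicate 4 (limma adjusted p = 0.049). In 18 of 23 alternatives it did not pass, with a highest value at a pseudocount of 1 FPKM (limma adjusted p = 0.29). *lys-5* therefore had its highest mean in wt and its lowest in *gas-1*, the order of its neighbour *lys-4*, and *lys-4* exceeded it in every library, by 61.5 to 298 times.

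*ilys-2* and *ilys-3*, neighbours on chromosome IV, were low in every strain, at no more than 0.220 FPKM. *ilys-2* had its lowest mean in *gas-1* and *ilys-3* in wt. *ilys-3* encodes a lysozyme that breaks down ingested bacteria in the pharynx and intestine. *ilys-2* had 0.121, 0.121, 0.119, 0.0935 and 0.220 FPKM in *age-1; gas-1* libraries, 0.0415, 0.0091, 0.0245, 0.0547 and 0.0184 FPKM in *gas-1* libraries, and 0.0715, 0.0207, 0.0612, 0.0283 and 0.0670 FPKM in wt libraries. The double mutants exceeded both other strains in all libraries. The rise was 0.85 compared to *gas-1* mutants (limma adjusted p = 0.001) and 0.64 compared to wt (limma adjusted p = 0.0017), and the change of *gas-1* mutants compared to wt was -0.20 (limma adjusted p = 0.27). The call of the double mutants compared to wt was lost after quantile normalization (0.26, limma adjusted p = 0.3).

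*ilys-3* had 0.114, 0.0882, 0.134, 0.121 and 0.0805 FPKM in *age-1; gas-1* libraries, 0.0306, 0.0322, 0.0289, 0.208 and 0.0735 FPKM in *gas-1* libraries, and 0.0316, 0.0122, 0.0077, 0.0125 and 0.0178 FPKM in wt libraries. The highest of all values was *gas-1* replicate 4. Double-mutant libraries were all above wt libraries, with a rise of 0.83 (limma adjusted p = 0.0027). Compared to *gas-1* mutants the change was 0.33 (limma adjusted p = 0.28), and without *gas-1* replicate 4 it was 0.56 (limma adjusted p = 0.0025). In *gas-1* compared to wt animals the change was 0.50 (limma adjusted p = 0.052), and 0.27 without *gas-1* replicate 4 (limma adjusted p = 0.044). It was 0.58 to 0.59 without any of *gas-1* replicates 1 to 3 (limma adjusted p of 0.033 to 0.037). In 18 of 23 alternatives this change compared to wt did not pass, with a highest value after quantile normalization (limma adjusted p = 0.14).

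*lys-10* had 0.167, 0.0757, 0.0388, 0.102 and 0.0815 FPKM in *age-1; gas-1* libraries, 0.0434, 0.0082, 0.0146, 0.0630 and 0.0661 FPKM in *gas-1* libraries, and 0.0512, 0.0433, 0.0626, 0.0253 and 0.0540 FPKM in wt libraries. The strains overlapped. No comparison passed the test, with changes of 0.46 in double mutants compared to *gas-1* (limma adjusted p = 0.062), -0.10 in *gas-1* compared to wt (limma adjusted p = 0.65) and 0.36 in double mutants compared to wt (limma adjusted p = 0.076). Without *age-1; gas-1* replicate 3, its lowest library, the first was 0.57 (limma adjusted p = 0.022) and the last 0.47 (limma adjusted p = 0.02), and without *gas-1* replicate 5 the first was 0.53 (limma adjusted p = 0.039). In 21 of 23 alternatives the first did not pass, with a highest value without the 4 sperm-poor libraries (limma adjusted p = 0.19). The last passed in no other alternative.

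**Figure D5:**
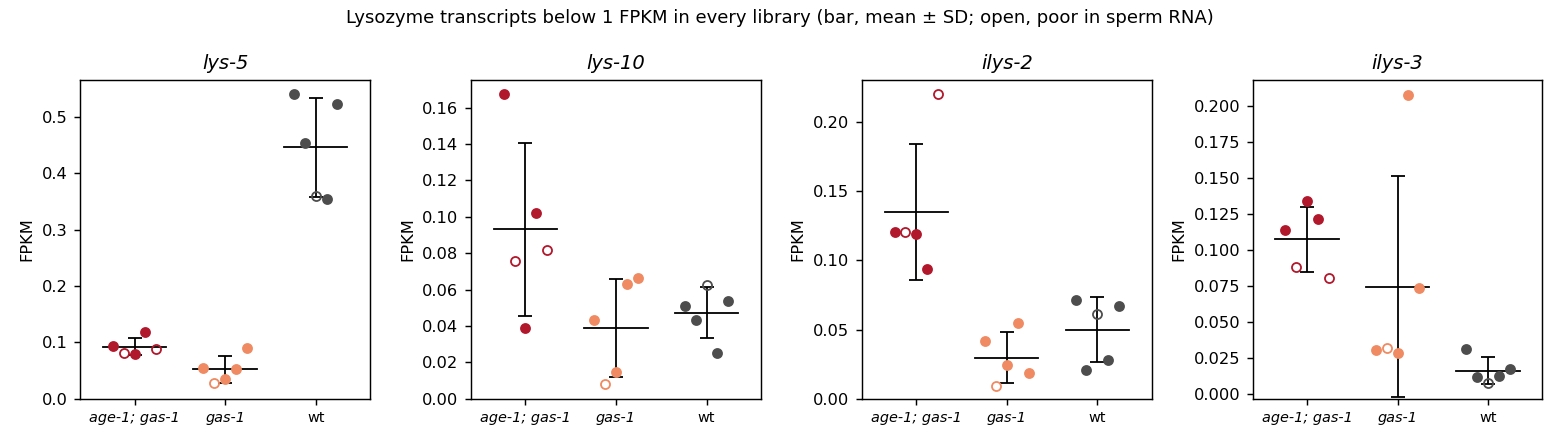
FPKM (vertical axis, a separate scale for each gene) of the 4 lysozyme transcripts below 1 FPKM in the 5 libraries of each strain (points), with mean ± SD (bars); open points are the 4 libraries poor in sperm RNA. *lys-5* is at 0.355 to 0.541 FPKM in wt and at no more than 0.119 FPKM in both mutants, and *gas-1* replicate 4 stands alone at 0.208 FPKM for *ilys-3*, which takes the lower SD bar below 0.

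The lysozyme genes of the clusters that were not among the 10 were examined for their neighbours' order. Beside *lys-1* and *lys-2*, *lys-3* averaged 1.24 ± 0.24 FPKM in *age-1; gas-1*, 0.725 ± 0.375 FPKM in *gas-1* and 0.391 ± 0.127 FPKM in wt animals. It reached 1 FPKM in 4 double-mutant libraries, 1 *gas-1* library and no wt library, so it passed the filter only through strains in which it was high, and values are given from the fit without a filter. There it rose by 0.78 in double mutants compared to *gas-1* (limma adjusted p = 0.049), by 0.69 in *gas-1* compared to wt (limma adjusted p = 0.04) and by 1.47 in double mutants compared to wt (limma adjusted p = 0.00027). Among the filtered genes no call of *lys-3* held after quantile normalization, where the change in *gas-1* compared to wt was -0.31 (limma adjusted p = 0.45). Beside *lys-4* and *lys-5*, *lys-6* averaged 0.278 ± 0.138 FPKM in *age-1; gas-1*, 0.161 ± 0.063 FPKM in *gas-1* and 0.337 ± 0.115 FPKM in wt animals, again with the lowest mean in *gas-1*. In the fit without a filter it fell by 0.74 in *gas-1* compared to wt (limma adjusted p = 0.033). There its change between the mutants was 0.49 (limma adjusted p = 0.23), and its libraries overlapped in every comparison. *ilys-1*, beside *ilys-2*, rose by 0.39 in *gas-1* (limma adjusted p = 0.025) and by 0.37 in *age-1; gas-1* mutants (limma adjusted p = 0.027) compared to wt in that fit, with a highest value of 0.0860 FPKM over all libraries. Of the lysozyme genes outside the clusters, *ilys-4* averaged 6.63 ± 0.716 FPKM in *age-1; gas-1*, 5.19 ± 0.753 FPKM in *gas-1* and 2.51 ± 0.332 FPKM in wt animals and rose by 1.02 in *gas-1* (limma adjusted p = 2.6e-06) and by 1.37 in *age-1; gas-1* mutants (limma adjusted p = 7.8e-08) compared to wt. Between the mutants *ilys-4* rose by 0.35 (limma adjusted p = 0.026), a call that was lost without the 4 sperm-poor libraries (limma adjusted p = 0.088). *ilys-6* had 0.145, 0.060, 0.215, 0.409 and 0.126 FPKM in *age-1; gas-1* libraries, was listed at 0 in 4 *gas-1* libraries and at 0.0204 FPKM in the other, and was listed at 0 in all wt libraries. *lys-9* stayed below 0.01 FPKM in every library.

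Genes whose profile was most like that of 3 members were sought by Pearson correlation of log2(FPKM + 0.1) over the 15 libraries among 11640 tested genes. These correlations are descriptions, since the points share strains and the 4 sperm-poor libraries. For *lys-7* the closest were *asp-4* (r = 0.98), which encodes an aspartyl protease of the lysosome and averaged 257.3 FPKM in *age-1; gas-1*, 115.1 FPKM in *gas-1* and 154.4 FPKM in wt animals, C14C6.5 (r = 0.97) and Y46G5A.34 (r = 0.97). For *lys-8* they were the cytochrome P450 gene *cyp-34A8* (r = 0.99), *saeg-2* (r = 0.99) and the arrestin-domain gene *arrd-11* (r = 0.99). The last averaged 1.87 FPKM in *age-1; gas-1*, 0.326 FPKM in *gas-1* and 0.0345 FPKM in wt animals. It passed the filter mainly through the double mutants, so its likeness to *lys-8* carries no weight. For *ilys-5* they were Y57G11B.5 (r = 0.98), C12D5.9 (r = 0.98) and *far-1* (r = 0.97), which encodes a fatty acid and retinol binding protein and averaged 445.8 FPKM in *age-1; gas-1*, 303.6 FPKM in *gas-1* and 624.3 FPKM in wt animals.

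Genes of the pathways that are known to control lysozymes were looked at next. These lists and those that follow were chosen with earlier results of these data known, so their counts are descriptions. Transcripts of *daf-16* averaged 102.0 ± 4.84 FPKM in *age-1; gas-1*, 105.9 ± 4.43 FPKM in *gas-1* and 92.7 ± 2.89 FPKM in wt animals. Their change between the mutants was -0.05 (limma adjusted p = 0.32), and the rise by 0.19 in *gas-1* compared to wt (limma adjusted p = 0.00063) was 0.07 after median-of-ratios rescaling (limma adjusted p = 0.1). DAF-16 is governed by its entry into the nucleus, which a transcript level does not measure. Of 13 regulators of intestinal immune genes, IIS components included, 5 rose and none fell in double mutants compared to *gas-1*, against 13.5% of all genes called higher, with a median of 0.17. Without the 4 sperm-poor libraries 6 rose and none fell. Against wt, *gas-1* had 8 of them higher and 2 lower, and double mutants had 9 higher and 1 lower, with medians of 0.35 for *gas-1* and 0.65 for double mutants. Of all genes, 44.0% were higher and 24.6% lower in *gas-1*, and 44.5% higher and 31.2% lower in double mutants. *akt-2*, a kinase that acts below AGE-1, averaged 8.80 ± 0.776 FPKM in *age-1; gas-1*, 4.12 ± 0.394 FPKM in *gas-1* and 3.01 ± 0.436 FPKM in wt animals and rose by 1.08 between the mutants (limma adjusted p = 2.2e-06). *hlh-30*, the worm counterpart of TFEB that controls lysosomal and immune genes, averaged 161.9 ± 9.90 FPKM in *age-1; gas-1*, 129.2 ± 9.48 FPKM in *gas-1* and 84.9 ± 7.92 FPKM in wt animals and rose by 0.33 between the mutants (limma adjusted p = 0.0025). The receptor gene *fshr-1* rose by 0.40 (limma adjusted p = 0.016). The bZIP factor gene *zip-2* changed by 0.17 between the mutants (limma adjusted p = 0.19) and rose by 1.41 in *gas-1* compared to wt (limma adjusted p = 2.1e-08). *elt-2*, the GATA factor that defines the intestine, averaged 2.71 ± 0.191 FPKM in *age-1; gas-1*, 2.42 ± 0.426 FPKM in *gas-1* and 1.41 ± 0.206 FPKM in wt animals.

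All 8 genes of the p38 PMK-1 pathway rose in both mutants compared to wt, whereas between the mutants 3 rose and 2 fell. Of all genes, 13.5% were called higher and 19.5% lower between the mutants. The medians were 0.93 in *gas-1* and 0.75 in double mutants compared to wt (0.14 over all genes, of which 44.0% and 44.5% were called higher), and 0.06 between the mutants. Without the 4 sperm-poor libraries 1 rose and 3 fell between the mutants, with *tir-1* also called lower (-0.49, limma adjusted p = 0.048). Against wt, 7 of the 8 rose in *gas-1* after quantile normalization, and as many after median-of-ratios rescaling. The kinase gene *pmk-1* averaged 15.8 ± 1.71 FPKM in *age-1; gas-1*, 31.1 ± 2.94 FPKM in *gas-1* and 11.4 ± 1.87 FPKM in wt animals. It fell by 0.97 in double mutants compared to *gas-1* (limma adjusted p = 1.1e-05) and rose by 1.45 in *gas-1* compared to wt (limma adjusted p = 4.3e-08). Its relative *pmk-2* averaged 9.15 ± 0.719 FPKM in *age-1; gas-1*, 28.9 ± 2.13 FPKM in *gas-1* and 5.11 ± 0.998 FPKM in wt animals, and fell by 1.65 between the mutants (limma adjusted p = 1.2e-07). The adaptor gene *tir-1*, at the top of the cascade, rose by 2.56 in *gas-1* (limma adjusted p = 2.1e-07) and by 2.32 in *age-1; gas-1* mutants (limma adjusted p = 2.7e-07) compared to wt. The phosphatase gene *vhp-1*, whose product counteracts the kinases, was highest in the double mutants, with a rise by 0.59 compared to *gas-1* (limma adjusted p = 0.0004).

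Of the 10 genes of the DBL-1 pathway 9 were tested, and the ligand gene *dbl-1* itself stayed below 1 FPKM, with 0.504 ± 0.033 FPKM in *age-1; gas-1*, 0.541 ± 0.042 FPKM in *gas-1* and 0.415 ± 0.060 FPKM in wt animals. Between the mutants 4 of the 9 rose and none fell (median 0.25, with 13.5% of all genes higher), also without the sperm-poor libraries. Compared to wt, 7 rose and none fell in *gas-1* and likewise 7 in *age-1; gas-1* mutants, against 44.0% and 44.5% of all genes called higher. After quantile normalization 5 rose and 1 fell in double mutants and 4 rose and 1 fell in *gas-1* compared to wt. The pathway's regulators *sma-10* and *crm-1* rose by 0.80 (limma adjusted p = 0.00028) and 0.41 (limma adjusted p = 0.002) in double mutants compared to *gas-1*, and the receptor gene *sma-6* changed by 0.06 (limma adjusted p = 0.62). The signal transducer gene *sma-3* rose by 0.27 (limma adjusted p = 0.011).

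Saposin-like proteins (*spp* genes) perforate membranes and act beside lysozymes in the gut. Of the 15 that were tested out of 23, 12 rose and none fell in double mutants compared to *gas-1*, against 13.5% of all genes called higher, with a median of 0.77 (-0.02 over all genes), and 13 rose without the sperm-poor libraries. After quantile normalization 12 rose and 1 fell between the mutants. Against wt, *gas-1* had 6 higher and 4 lower, shares close to the 44.0% and 24.6% of all genes. After median-of-ratios rescaling 5 were higher and 5 lower in *gas-1*, and after quantile normalization 4 were higher and 5 lower. Double mutants had 13 higher and none lower than wt, against 44.5% and 31.2% of all genes. The counts of 6 and 13 genes higher than wt include *spp-13*, which reached at most 0.191 FPKM in wt libraries. It passed the filter only through the mutants, so its calls compared to wt carry no weight. *spp-1*, a target of DAF-16, averaged 127.6 ± 9.15 FPKM in *age-1; gas-1*, 35.9 ± 4.67 FPKM in *gas-1* and 34.7 ± 4.12 FPKM in wt animals, a rise by 1.83 between the mutants (limma adjusted p = 9.9e-09). *spp-5*, *spp-14* and *spp-8* rose by 1.199, 1.03 and 1.04 in the same comparison (limma adjusted p of 1.5e-07, 5.1e-08 and 0.00016).

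Markers of the intestine, the main site of lysozyme production, moved as well. Over 8 intestinal marker genes the summed level was 808.6 to 976 FPKM in *age-1; gas-1*, 800.3 to 1073 FPKM in *gas-1* and 476.3 to 811.1 FPKM in wt libraries. In *gas-1* compared to wt 5 of the 8 rose and 1 fell, in double mutants compared to wt 5 rose and none fell, and between the mutants 2 rose and 1 fell. Of all genes, 44.0% were higher and 24.6% lower in *gas-1* compared to wt, and 44.5% and 31.2% in double mutants compared to wt. Between the mutants 13.5% were higher and 19.5% lower. These marker counts therefore say little about the intestine. The esterase gene *ges-1* averaged 110.8 ± 5.63 FPKM in *age-1; gas-1*, 51.5 ± 8.19 FPKM in *gas-1* and 28.5 ± 6.55 FPKM in wt animals, while the actin gene *act-5* of the microvilli averaged 260.5 ± 47.3 FPKM in *age-1; gas-1*, 351.1 ± 42.1 FPKM in *gas-1* and 302.3 ± 47.4 FPKM in wt animals. Other tissues moved too. Compared to wt, 3 of 4 hypodermal, 4 of 4 tested neuronal and 2 of 4 body wall muscle markers were higher in each mutant, with none lower, against the same shares of all genes. The hypodermal genes called higher include *rol-6*, which reached at most 0.701 FPKM in wt libraries. It passed the filter only through the mutants, so its calls compared to wt carry no weight. Of the 6 oocyte markers, 2 were higher and 4 lower in double mutants compared to wt, with *oma-2* at -0.73 (limma adjusted p = 3e-06), and 2 were lower in *gas-1* compared to wt. Between the mutants 2 oocyte markers were higher and 3 lower, against 13.5% and 19.5% of all genes. Compared to wt, 44.5% of all genes were higher and 31.2% lower in double mutants, and 24.6% were lower in *gas-1*. None of the 3 tested pharyngeal markers was called in any comparison. The part of tissue composition in the lysozyme levels was not tested.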

How the data were processed

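Whole-animal mRNA was sequenced from *age-1; gas-1*, *gas-1* and wt animals (5 libraries each) as single reads from a stranded library kit. The authors deposited FPKM per gene, 1 table per library. Per the submitters' processing notes, CASAVA 1.8.2, STAR 2.4.0h, Cufflinks 2.1.1, Cuffdiff and FastQC 0.10.1 were used. Build, annotation and strand setting of the counting: not given in the sources used here. Strains and replicate numbers came from the sample titles.

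A gene was kept if it reached 1 FPKM in 5 or more of 15 libraries. log2(FPKM + 0.1) was fitted with limma 3.58.1 (R 4.3.3), all 3 strains in one fit with a mean-variance trend, with Benjamini-Hochberg adjustment per comparison (5% FDR, two-sided). The fit was tested on simulated data. FPKM hold no depth, so counting intervals could not be given. The replicate numbers of different strains were not treated as pairs in the main fit.

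The members and all gene lists were chosen with earlier results of these data known. Named genes are the 10 members, 6 other lysozyme genes, up to 4 genes per list with the smallest adjusted p, *daf-16*, *elt-2*, *hlh-30*, *pmk-1*, *dbl-1*, the 3 closest profiles of *lys-7*, *lys-8* and *ilys-5*, and markers. Alternatives covered the pseudocount, filter, scaling, limma options, replicate block and libraries left out; those for the 4 low members, the other lists and genes outside the 10 were chosen after seeing the data. Sequences were not used here.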

Additional observations from a re-analysis of the deposited data

Results flagged for a closer look

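Within the double mutants, *ilys-2* had a single library far from the others. Replicate 5 had 0.22 FPKM, against 0.0935 to 0.121 FPKM in the other 4 *age-1; gas-1* libraries, and on the log2 scale the gap to its nearest neighbour was 0.738 of the whole range. It was the only one of 30 gene and strain groups tested to pass Dixon's limit of 0.71 for 5 samples, while chance alone passes about 1 in 20. The library is also among the 4 that are poor in sperm RNA. Without those 4 libraries *ilys-2* was higher by 0.65 in double mutants compared to *gas-1* (limma adjusted p = 0.013, no filter).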

How the results depend on the processing

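All 16 changes of the 6 abundant lysozyme transcripts that passed the test kept their direction and stayed past it under each of the 28 alternatives run. The other 2 were *lys-1* and *lys-2* between the mutants. The change of *lys-2* in double mutants compared to *gas-1* was 0.0155 after quantile normalization, 0.0159 with array weights, 0.0931 without the 4 libraries poor in sperm RNA, and between -0.21 and 0.03 when single libraries were left out (0.0253 without *gas-1* replicate 2, 0.0128 without *gas-1* replicate 5), never past the test. For *lys-1* the range over single libraries left out was 0.16 to 0.31. For *lys-10* the change was -0.0115 in double mutants compared to wt after quantile normalization and 0.0223 in *gas-1* compared to wt without the 4 libraries. For *ilys-2* the rise compared to wt was 0.26 after quantile normalization (limma adjusted p = 0.3), and for *lys-5* the change between the mutants passed the test with a pseudocount of 0.01 FPKM (0.79, limma adjusted p = 0.029). Other genes that changed sign were *lys-3* (-0.31) and *sma-3* (-0.0243) in *gas-1* compared to wt and *sma-6* (-0.0008) between the mutants, all after quantile normalization, and *spp-1* (-0.0744) in *gas-1* compared to wt after median-of-ratios rescaling. The cause was not tested for any of these. *lys-3* was not among the filtered genes without the 4 libraries, since too few libraries reached 1 FPKM. Its value there without a filter is not given here. Array weights called 5976 genes between the mutants, against 3848. Leaving out single libraries gave 4 to 5 lysozyme genes higher between the mutants and 3205 to 4455 genes in all. Scaling moved the balance of all genes, while among the abundant lysozymes it changed only the call of *lys-1* between the mutants. The median of all genes compared to wt, 0.14 in either mutant, was 0.02 in double mutants and 0.01 in *gas-1* after median-of-ratios rescaling, and -0.12 in double mutants and -0.08 in *gas-1* after quantile normalization. In *gas-1* compared to wt 5120 genes were higher and 2866 lower, against 4245 and 4038 after median-of-ratios rescaling and 3057 and 4423 after quantile normalization. Double mutants against wt had 5183 genes higher and 3633 lower, against 3359 and 4999 after quantile normalization, and between the mutants 1572 and 2276, against 1905 and 1887 after upper-quartile rescaling. The replicate numbers were not treated as pairs. Of 15 same-numbered pairs 10 correlated above 0.1 (range -0.76 to 0.79), and 2 of 15 libraries matched their own number best. The sperm-poor libraries weigh on these correlations, as wt replicate 3 and *age-1; gas-1* replicate 2 had r = 0.86. The check therefore cannot show whether libraries of the same number belong together. With the replicate number as a block the lysozyme counts were 4 higher and 0 lower, 3 and 3, and 4 and 2, and 3642, 7867 and 8734 genes were called in all; *lys-5* without a filter passed the test between the mutants (limma adjusted p = 0.048). FPKM carry no read totals, so precision at low levels is unknown.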
